A study of Mus musculus with 6 samples.

Results

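The forkhead (Fox) transcription factor genes of the mouse were followed in RNA-seq counts from differentiating epiblast stem cells. The members were all protein-coding genes whose symbol starts with Fox, a letter from a to s and a number, whether detected or not; noncoding transcripts with a Fox symbol stayed out. By this rule 44 genes were found among 55471 gene identifiers, 21897 of them protein-coding. The symbols and gene models came from an annotation of mouse build GRCm38 (mm10).

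Epiblast stem cells (EpiSC) are pluripotent cells that stand for the epiblast just before and during gastrulation. They were grown over a layer of irradiated embryonic fibroblasts in medium holding bFGF and Activin A, then aggregated into embryoid bodies and differentiated in serum for 2 days. The 6 libraries were 3 titled Mixl1 KO and 3 titled Mixl1 induced D1Dox; Mixl1 is a homeobox gene of the primitive streak. The induced libraries came from an inducible Mixl1 line given 1 µg/mL doxycycline during the last 24 h before collection. The same treatment note stands on the Mixl1 KO libraries, whose titles name no doxycycline, so whether they received it is not stated. The labels also do not say whether the inducible line carries the knockout, whether the lines share a parent or are single clones, or which part of Mixl1 was deleted. The triplicates are not said to come from separate cultures, so the p-values measure only the spread between these libraries, which may be technical.

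Forkhead proteins bind DNA through a winged-helix domain and are sorted by letter into subfamilies. FOXA proteins open chromatin in endoderm, FOXH1 carries the SMAD proteins of NODAL and activin signalling to DNA, and FOXC, FOXF and FOXD members mark mesoderm and neural crest. FOXO, FOXK, FOXM and FOXP members are expressed in many cell types, where they act in metabolism, stress responses, the cell cycle and repression.

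Between 17490426 and 21026423 reads per library fell on genes on the strand of the kit. Levels below are CPM, reads scaled by depth, on TMM-scaled library sizes, and changes are log2 fold changes, induced minus knockout, with standard errors and Benjamini-Hochberg adjusted p from edgeR's quasi-likelihood test over 15091 genes. Mixl1 itself had 817, 668 and 812 reads in the Mixl1 KO libraries and 8860, 7720 and 7861 in the induced ones, a log2 fold change of 3.44; reads outside the deleted part would not check the deletion. Of 10 epiblast markers, 6 rose and 4 fell, and their sum stood at 2324 to 2534 CPM in the Mixl1 KO libraries and 2602 to 2776 CPM in the induced ones. Of 8 primitive streak markers, 5 fell and 2 rose, Mixl1 among them, and their sum stood at 2575 to 2707 against 1252 to 1289 CPM. Summed macrophage markers stood at 319.3 to 459.9 CPM in the Mixl1 KO libraries and 47.0 to 59.1 CPM in the induced ones, with 9 of 10 markers lower and the other one not tested. Summed fibroblast markers stood at 728.8 to 944.8 against 515.6 to 710.7 CPM, with 6 of 10 lower and 3 higher. Summed endothelial markers stood at 7.66 to 7.84 against 46.4 to 52.8 CPM, with 4 higher and 1 lower of 5 tested from 8 listed. Of 8 visceral endoderm markers 3 were tested, and Ttr and Hnf4a were at 0. The part of these cell types in the Fox results was not tested. In bulk RNA, fewer cells of a type and less RNA per cell cannot be told apart.

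The forkhead genes changed in both directions. After the filter on low counts 28 of the 44 members were tested, and at an adjusted p under 0.05 14 were higher and 11 lower in the induced libraries, with Foxf2, Foxj2 and Foxj3 not past the threshold. Over all genes 62.6% passed, 31% higher and 31.6% lower. A change of at least 2-fold was called for 11 members, 5 higher and 6 lower, against 16.1% of all genes tested. These counts are a description. Of the tested members, 8 were above the filter's cutoff of 0.534 CPM in every library of one group but not of the other, so that they were tested through the group where they are high. Foxf2 was above it in 2 Mixl1 KO libraries and 1 induced library. The other 19 members were above it in all 6 libraries. Of those 19, 17 were called, 11 higher and 6 lower, and 4 changed at least 2-fold. Among the 13502 genes above the cutoff in all libraries, 63% were called and 11.6% were called with at least 2-fold. The median log2 fold change of the 28 members was 0.13, against 0.00 for all genes tested, and the median size was 0.75 against 0.32. These medians include the 8 members tested through the group where they are high. Medians of the 19 alone are not given, so the difference in size is only a description.

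**Figure D1:**
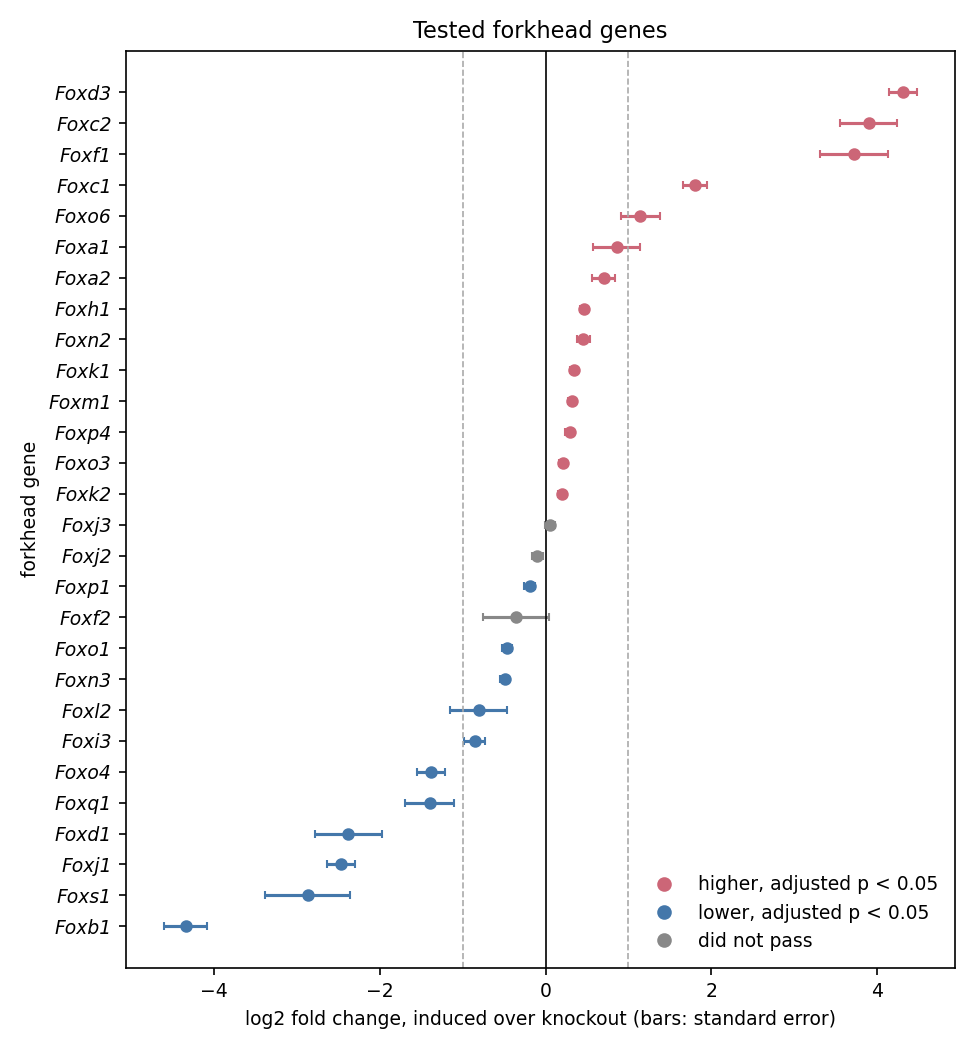
Log2 fold change, induced minus Mixl1 KO, of the 28 tested forkhead members, with bars of 1 standard error; colours show members past the threshold in each direction. Foxd3, Foxc2 and Foxf1 lie above 3 and Foxb1 lies below -4, while most members expressed at high levels lie within 1 log2 unit of 0.

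By level, of 16 members at 10 CPM or more in either group, 3 changed at least 2-fold (Foxd3, Foxc1 and Foxo4), and of 12 tested members below that level 8 did. Over all genes these shares were 9.78% and 28.9%. Of the members changed at least 2-fold, Foxd3 was tested through the group where it is high. So were Foxb1, Foxc2, Foxd1, Foxf1, Foxq1 and Foxs1 among those below 10 CPM. The counts by level are therefore only a description. Per kilobase of exon, Foxh1 had the highest level in both groups, with a mean of 93.6 CPM per kb in Mixl1 KO and 129.2 CPM per kb in induced libraries. Foxo4 was next at 80.1 and 30.6 CPM per kb, then Foxm1 at 20.0 and 25.1 and Foxk2 at 19.8 and 22.6. Foxm1 and Foxk2 are close in both orders. Foxd3 moved from rank 22 at 0.396 CPM per kb to rank 8 at 7.95 CPM per kb.

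**Figure D2:**
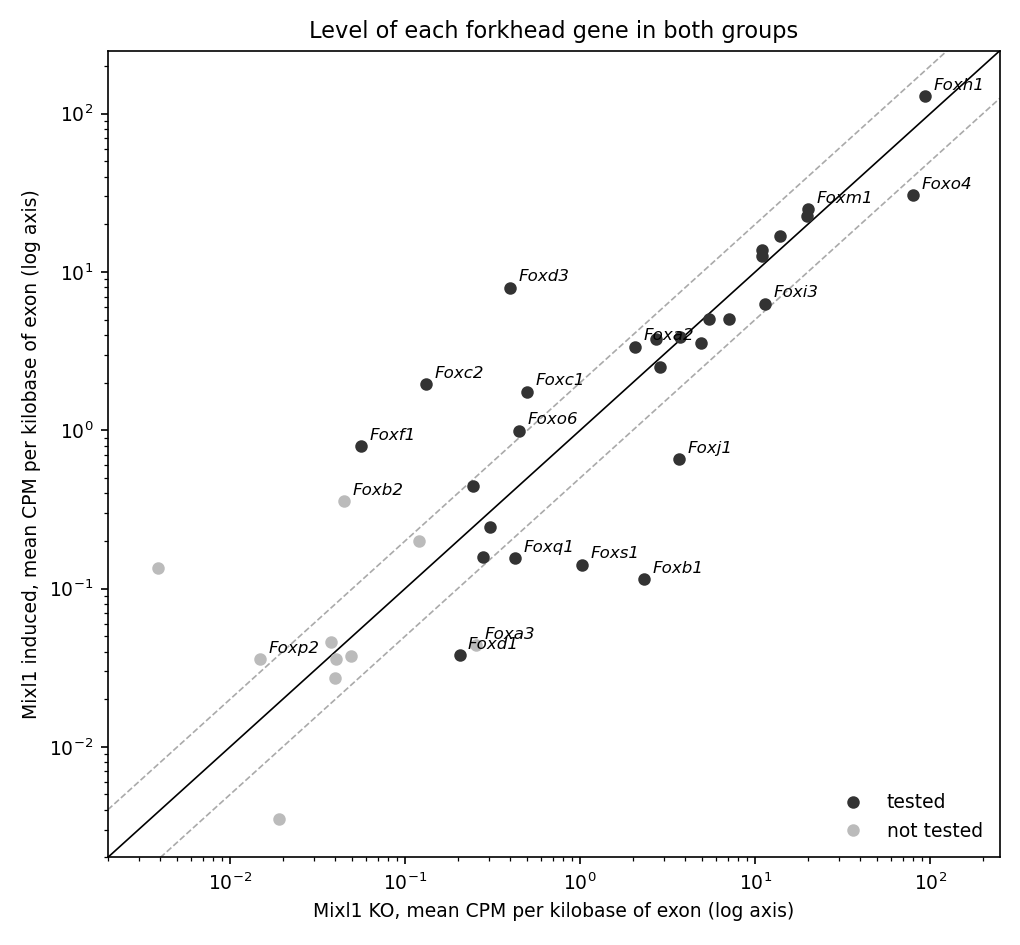
Mean level of each member per kilobase of exon (CPM per kb) in Mixl1 KO libraries on the horizontal log axis and induced libraries on the vertical log axis; the solid diagonal marks equal levels, the dashed lines a 2-fold difference, and members without reads in a group are not drawn. Foxh1 and Foxo4 have the highest levels in both groups, and Foxd3 stands well above the diagonal while Foxb1 stands well below it.

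Summed over the family, the level was 1163 ± 57.0 CPM (SD, n = 3) in Mixl1 KO and 1114 ± 8.83 CPM (SD, n = 3) in induced libraries. The sum in Mixl1 KO replicate 3 was 1229 CPM, the highest of the 6, with Foxo4 at 346 CPM there. Without Foxo4 the sums were 884.3 ± 1.48 and 1007 ± 7.39 CPM. The Foxo subfamily made up 34.9% of the family's CPM in Mixl1 KO and 21.2% in induced libraries. Foxk went from 16.0% to 20.1%, Foxh from 11.0% to 15.8% and Foxm from 9.91% to 12.9%. The Foxd subfamily, at 2.13 CPM in Mixl1 KO, reached 18.7 CPM, and Foxc went from 3.26 to 15.5 CPM.

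**Figure D3:**
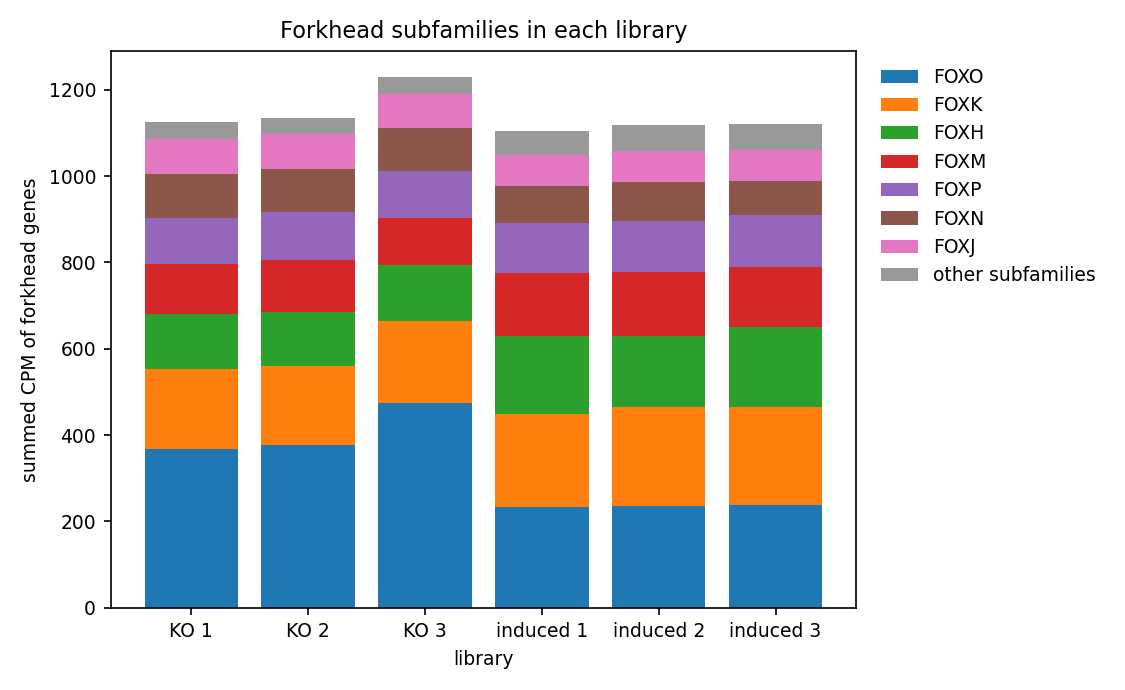
Summed CPM of the forkhead genes in each library, stacked by subfamily, with the subfamilies of low level drawn together in grey. The Foxo part is smaller in every induced library (21.2% of the family on average, against 34.9% in Mixl1 KO), and the Foxk, Foxh and Foxm parts are larger.

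The members that rose by at least 2-fold were Foxd3, Foxc2, Foxf1, Foxc1 and Foxo6. Foxd3 (chr4:99656299-99658622, plus strand) is a regulator of pluripotent cells and of early neural crest. It had 21, 22 and 10 reads in the Mixl1 KO libraries and 383, 329 and 333 in the induced ones. Every induced library was far above every Mixl1 KO library. Its level went from 0.921 ± 0.355 to 18.5 ± 0.309 CPM (SD, n = 3 each), a log2 fold change of 4.32 (SE 0.17, edgeR adjusted p = 1.055e-15).

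The FOXC and FOXF members are mesoderm factors: Foxc1 and Foxc2 act in paraxial mesoderm and vessels, and Foxf1 in lateral mesoderm. Foxc2 (chr8:121116171-121118895, plus strand) had 3, 13 and 4 reads in Mixl1 KO and 95, 79 and 125 in induced libraries. Foxf1 (chr8:121084386-121088144, plus strand) had 5, 2 and 1 reads against 34, 33 and 41. Foxc1 (chr13:31806633-31812476, plus strand) had 67, 53 and 48 reads against 187, 177 and 212. In none of these genes did the groups overlap. Nor did they overlap in Foxj2 and Foxj3, which did not pass, and the share over all genes is not given. Mthfsd, which lies between Foxf1 and Foxc2, did not pass the test (log2 fold change 0.05). Foxc2 rose by 3.90 (SE 0.34, edgeR adjusted p = 1.782e-08), Foxf1 by 3.72 (SE 0.41, adjusted p = 5.343e-08) and Foxc1 by 1.81 (SE 0.15, adjusted p = 5.205e-10) on the log2 scale. Foxc2 and Foxf1 rest on few reads in Mixl1 KO: without Mixl1 KO replicate 2 the change of Foxc2 was 4.85, and without Mixl1 KO replicate 1 that of Foxf1 was 4.45. Foxf2, the close relative of Foxf1, had 16, 8 and 18 reads against 8, 16 and 8 and its groups overlapped (log2 fold change -0.35, edgeR adjusted p = 0.4543). Endothelial markers, whose sums are given above, also stood higher in the induced libraries; their part in the Foxc and Foxf values was not tested.

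Foxo6 (chr4:120267079-120287349, minus strand), a FOXO member known mainly from brain, had 18, 27 and 22 reads in Mixl1 KO and 47, 47 and 52 in induced libraries. The rise of 1.15 (SE 0.24, edgeR adjusted p = 2.424e-04) was from 1.17 to 2.60 CPM, a low level in both groups.

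**Figure D4:**
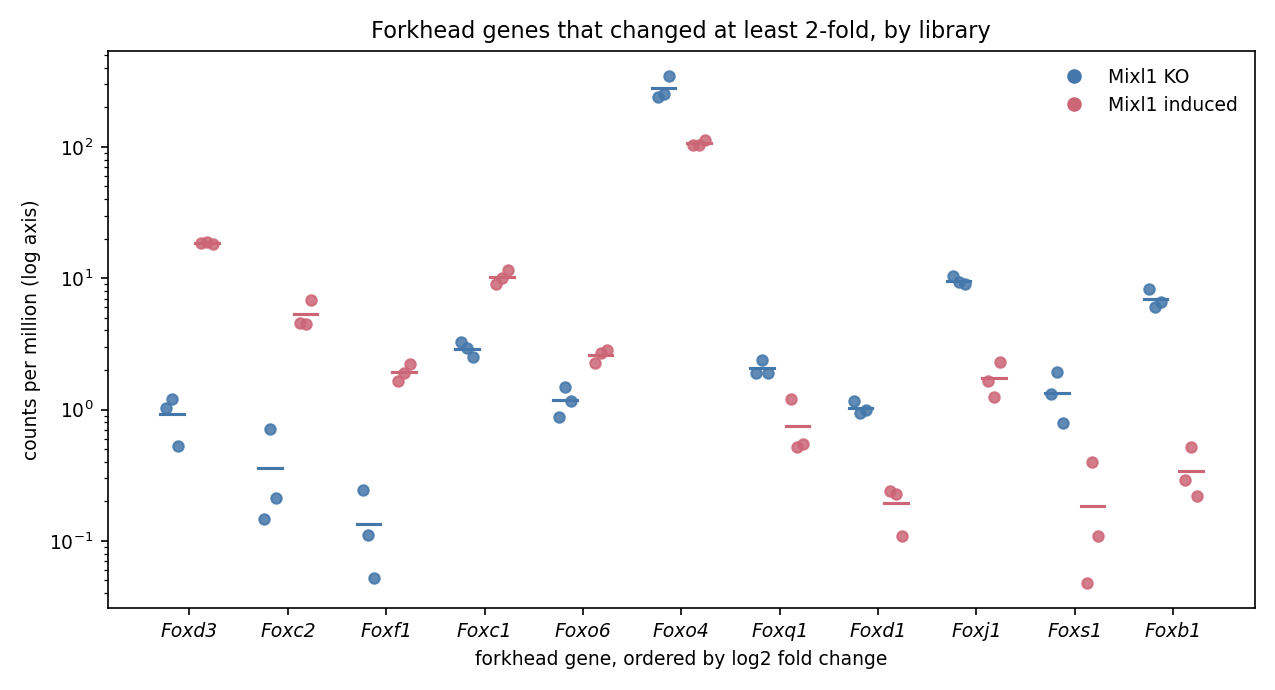
CPM per library on a log axis for the 11 forkhead genes called with at least 2-fold change, as points for 3 Mixl1 KO and 3 induced libraries. The groups do not overlap in these genes, which were picked for their change. Foxj2 and Foxj3, which did not pass the threshold, also have groups that do not overlap.

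The members that fell by at least 2-fold were Foxb1, Foxs1, Foxj1, Foxd1, Foxq1 and Foxo4. Foxb1 (chr9:69757710-69760940, minus strand), known from the early neural tube and paraxial mesoderm, had 169, 109 and 125 reads in the Mixl1 KO libraries and 6, 9 and 4 in the induced ones. It went from 6.94 ± 1.16 to 0.341 ± 0.154 CPM (SD, n = 3 each), a log2 fold change of -4.35 (SE 0.26, edgeR adjusted p = 2.645e-12). This was the largest fall among the tested members.

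Foxj1 (chr11:116330704-116335399, minus strand), the main switch of motile cilia, had 214, 170 and 171 reads against 34, 22 and 42. The change was -2.47 (SE 0.17, edgeR adjusted p = 3.967e-11), from 9.60 ± 0.748 to 1.73 ± 0.524 CPM. Foxd1 (chr13:98354242-98359305, plus strand), a factor of kidney stroma and forebrain, had 24, 17 and 19 reads against 5, 4 and 2 (log2 fold change -2.38, SE 0.41, edgeR adjusted p = 2.862e-05). Its change was opposite in sign to that of Foxd3.

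Foxs1 (chr2:152931898-152933208, minus strand), a gene of pericytes and sensory neurons, had 27, 35 and 15 reads against 1, 7 and 2 (log2 fold change -2.87, SE 0.51, edgeR adjusted p = 6.79e-05). Without induced replicate 2 its change was -4.01. Foxq1 (chr13:31556134-31560976, plus strand), a gene of epithelial cells, had 39, 43 and 36 reads against 25, 9 and 10 (log2 fold change -1.40, SE 0.30, adjusted p = 3.191e-04). Induced replicate 1 stood apart from the other induced libraries for Foxq1, yet below every Mixl1 KO library.

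Foxo4 (chrX:101254528-101260873, plus strand), a FOXO factor held out of the nucleus by AKT signalling, was the most abundant member by CPM in Mixl1 KO. Its reads were 4920, 4556 and 6572 in Mixl1 KO and 2155, 1812 and 2065 in induced libraries, or 240, 251 and 346 against 104, 104 and 113 CPM. Mixl1 KO replicate 3 was higher than the other libraries of its group. Foxo4 fell by 1.39 on the log2 scale (SE 0.17, edgeR adjusted p = 1.393e-03). Without that library the change was -1.20 (adjusted p = 1.342e-17).

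Promoter sequence is shown for the members with a change of at least 2-fold that have an entry in the RefSeq promoter table (build GRCm38.p6), and for Foxa1, the one member with a forkhead motif. Each run is the 250 bases before the RefSeq start, 5′ to 3′ on the gene's strand. Capitals mark the motifs searched on both strands. These were the forkhead motif GTAAACA, the homeodomain core written as TAATTA, the CCAAT box, and the cyclic AMP response element, TGACGTCA, which was added after the windows were read. The paired homeodomain site, TAAT followed after 3 bases by its reverse complement, was searched too; it shares its letters with the homeodomain core.
Foxd3, chr4:99656049-99656298, plus strand: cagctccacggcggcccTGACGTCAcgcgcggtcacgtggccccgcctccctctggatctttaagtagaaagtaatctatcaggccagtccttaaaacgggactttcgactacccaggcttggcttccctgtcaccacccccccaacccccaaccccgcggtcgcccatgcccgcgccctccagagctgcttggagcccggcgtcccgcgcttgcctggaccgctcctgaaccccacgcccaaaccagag
Foxc1, chr13:31806396-31806645, plus strand: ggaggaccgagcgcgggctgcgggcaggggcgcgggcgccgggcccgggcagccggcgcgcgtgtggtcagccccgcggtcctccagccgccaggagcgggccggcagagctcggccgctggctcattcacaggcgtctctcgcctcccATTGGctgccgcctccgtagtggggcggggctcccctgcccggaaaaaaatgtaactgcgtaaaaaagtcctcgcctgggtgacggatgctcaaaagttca
Foxd1, chr13:98353995-98354244, plus strand: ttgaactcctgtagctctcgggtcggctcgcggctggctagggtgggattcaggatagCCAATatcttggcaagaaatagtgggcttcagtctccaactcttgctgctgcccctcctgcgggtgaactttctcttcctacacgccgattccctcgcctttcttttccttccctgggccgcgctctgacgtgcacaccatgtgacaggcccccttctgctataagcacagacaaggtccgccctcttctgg
Foxa1, chr12:57546112-57546361, minus strand: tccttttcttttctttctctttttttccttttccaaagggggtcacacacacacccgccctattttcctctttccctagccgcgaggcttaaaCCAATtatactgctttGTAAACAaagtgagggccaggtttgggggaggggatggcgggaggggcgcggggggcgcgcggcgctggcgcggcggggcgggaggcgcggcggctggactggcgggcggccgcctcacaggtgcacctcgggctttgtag
Foxd3 holds TGACGTCA, found in 1.55% of all 32851 promoters in the table, 233 bases before the start. Foxc1 and Foxd1, which moved in opposite directions, both hold a CCAAT box (in Foxc1 on the other strand). The box is in 14 of the members' 33 promoters and in 33.8% of all promoters. Foxa1 holds GTAAACA, found in 3.17% of all promoters, 141 bases before the RefSeq start. In the gene model used for the counts Foxa1 spans chr12:57540628-57546916. By that model this window and its motif lie inside the gene, downstream of its start. In all, 28 members had 33 promoters; TAATTA was found in those of Foxn1 and Foxp1 (4.84% of all promoters) and the paired site in none (0.463% of all). The median GC content was 62.0% in the members' promoters and 52.4% in all. A match is only a description of the letters in the window.

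The FOXA members and FOXH1 belong to the endoderm and NODAL programme. Foxa2, a marker of anterior primitive streak and definitive endoderm, had 98, 77 and 108 reads in Mixl1 KO and 160, 150 and 141 in induced libraries. It rose by 0.70 (SE 0.14, edgeR adjusted p = 1.199e-04), from 4.90 ± 0.728 to 7.99 ± 0.499 CPM, while the sum of the primitive streak markers was lower in the induced libraries. Foxa1, its partner in endoderm, rose from 0.809 to 1.47 CPM (0.86, SE 0.28, adjusted p = 0.01074); this call was lost in 3 of 14 other settings. Foxa3 was not tested, with 11, 5 and 14 reads against 1, 1 and 3, a knockout-to-induced ratio of 5.89 (95% exact interval 2.26 to 19.4, counting error only).

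Foxh1 (chr15:76668225-76669948, minus strand) had 2630, 2284 and 2456 reads in Mixl1 KO and 3739, 2873 and 3379 in induced libraries. Scaled to library size these were 128, 126 and 129 against 180, 164 and 184 CPM, with no overlap. The change was 0.46 (SE 0.049, edgeR adjusted p = 3.358e-08). Foxh1 lies on chromosome 15, where the median log2 fold change of 596 tested genes was -0.33, with 13.8% higher and 61.6% lower. Its neighbours Ppp1r16a and Cyhr1 fell by 0.23 and 0.46.

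Among the widely expressed members, Foxk1, Foxk2, Foxm1, Foxp4, Foxo3 and Foxn2 rose by small amounts. Foxm1, the driver of G2 and M phase genes, stood at 114, 120 and 111 CPM in Mixl1 KO and 146, 147 and 140 CPM in induced libraries (0.32, SE 0.047, edgeR adjusted p = 3.732e-06). Foxk1, a glucose-metabolism factor and corepressor partner, stood at 84.1, 81.2 and 82.5 against 99.3, 108 and 107 CPM (0.34, adjusted p = 3.764e-06). Its relative Foxk2 stood at 101, 103 and 107 against 116, 121 and 120 CPM (0.20, adjusted p = 9.99e-04). The changes were under 2-fold in all 3 genes. Their groups were separate, but so were those of Foxj2 and Foxj3, which did not pass.

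Foxp4, a repressor of the FOXP subfamily, stood at 66.3, 70.2 and 67.4 CPM in Mixl1 KO and 80.3, 84.7 and 84.5 in induced libraries (0.29, SE 0.051, edgeR adjusted p = 3.907e-05). Foxo3, a stress-response factor, stood at 83.6, 82.3 and 83.3 against 95.4, 98.3 and 93.9 CPM (0.21, adjusted p = 7.79e-04). Foxn2 stood at 20.3, 20.9 and 19.0 against 29.5, 29.0 and 24.2 CPM (0.46, adjusted p = 5.814e-05). Foxp4 and Foxn2 lie on chromosome 17, where the median log2 fold change of tested genes was -0.13.

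Foxo1, Foxn3, Foxp1 and Foxi3 fell. Foxo1, the insulin-regulated FOXO, stood at 43.6, 41.4 and 43.4 CPM in Mixl1 KO and 32.3, 31.7 and 28.9 in induced libraries (-0.47, SE 0.065, edgeR adjusted p = 1.771e-06). Foxn3, a checkpoint repressor, stood at 81.2, 80.6 and 81.5 against 57.5, 61.4 and 54.2 CPM (-0.49, adjusted p = 6.935e-08). Among the FOXO genes, then, Foxo4 and Foxo1 fell while Foxo3 and Foxo6 rose.

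Foxi3, a gene of the early ectodermal placodes, stood at 13.5, 15.3 and 15.1 CPM against 7.38, 10.3 and 6.61 (-0.86, edgeR adjusted p = 9.881e-06). Foxp1 stood at 40.4, 38.9 and 39.0 against 34.5, 33.2 and 35.8 CPM (-0.19, adjusted p = 0.01012; without induced replicate 2 it was 0.06257). Foxp1 is a repressor with roles in many tissues, and its change was the smallest of the falls that passed. Foxl2, the ovary and eyelid factor, stood at 0.907 CPM against 0.517 CPM (-0.81, adjusted p = 0.04566), a call lost in 8 of 13 other settings.

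Foxj2 and Foxj3 did not pass. Foxj2 stood at 29.5, 28.5 and 28.9 CPM in Mixl1 KO and 25.7, 27.2 and 28.3 in induced libraries (-0.10, edgeR adjusted p = 0.2258). Foxj3 stood at 41.1, 41.2 and 40.9 against 43.2, 43.3 and 41.5 CPM (0.05, adjusted p = 0.4286). In the Foxj subfamily only Foxj1 passed among the 3 members.

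The other 16 members were not tested. Foxe3, Foxi1 and Foxr1 had no read in any library, which allows a level of up to 0.0263 CPM over the 6 libraries (3 counts, counting error only). Foxb2 had 3, 0 and 1 reads in Mixl1 KO and 9, 7 and 14 in induced libraries, a ratio of 7.64 (95% exact interval 2.69 to 29.9), opposite in sign to its relative Foxb1. Foxp2 had 14 against 33 reads (2.40, interval 1.25 to 4.86), and Foxr2 had 22 against 36 (1.67, interval 0.955 to 2.98). Other members had few reads: Foxn4 15 in total, Foxe1 14, Foxl1 13, Foxd2 10, Foxp3 6, Foxd4 4, Foxn1 2 and Foxi2 1. These intervals cover counting error only and take no account of spread between libraries.

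Foxp3 had most of its reads on the other strand. On the strand opposite to Foxp3, the regulatory T cell factor, there were 2009 reads against 6 on its own strand. Its exons share bases with Ccdc22, Ppp1r3f and Gm36995. Gm12688, a long intergenic noncoding RNA that starts 1316 bases upstream of Foxd3 on the other strand, had 6, 11 and 5 reads in Mixl1 KO and 53, 42 and 39 in induced libraries (2.61, edgeR adjusted p = 2.076e-07). B230323A14Rik, an antisense gene that shares 418 exon bases with Foxb1, had 20, 19 and 14 reads against 0, 0 and 1. Rhno1, which starts 56 bases from Foxm1 on the other strand, rose by 0.37 (adjusted p = 2.919e-06). Med12, which starts 19502 bases from Foxo4 on the same strand, was lower like Foxo4 (-0.20, edgeR adjusted p = 0.001623). Foxl2os, given below, was lower like Foxl2. Some other called neighbours did not move with the member. Tulp3 near Foxm1 had a log2 fold change of -0.26. Frg2f1, which overlaps Foxj3, had -0.90 and Slc2a3 near Foxj2 had -0.44, while Foxj3 and Foxj2 did not pass. In all, 76 genes started within 20 kb of a member, some of them members themselves. Of these, 19 were tested and 11 were called, 3 higher (the member Foxc2 among them) and 8 lower. Over all genes tested 62.6% were called.

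Lists of genes that work with forkhead factors were counted beside all genes tested, of which 31% were higher and 31.6% lower with a median of 0.00. Of 24 genes listed around FOXM1 and the G2 and M phase, partners as well as targets, 19 rose and 1 fell. Their median log2 fold change was 0.27. Mybl2 (1.89), Ccna2 (0.61) and Plk1 (0.45) had the smallest p. Mybl2 was the only gene of the list called with at least 2-fold change. The list does not mark which of its genes are partners. Of 24 tested FOXO target genes out of 28 listed, 18 fell and 3 rose, with a median of -0.50; Gabarapl1 (-1.86), an autophagy gene, and Sesn3 (-1.45), a stress gene, fell, and Irs2 (1.27), an insulin signalling adaptor, rose. Of 25 upstream regulators and cofactors of FOXO, 3 rose and 12 fell (median -0.11; Sgk3 -1.08, Usp7 0.37, Ywhaq -0.33).

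Of 18 tested genes of the NODAL-SMAD pathway around FOXH1, 7 rose and 6 fell (median 0.08; Cer1 7.49, Gsc 4.43, Acvr1b -0.92). Of 12 tested endoderm genes around FOXA2, 8 rose and 1 fell (median 2.35), with Dkk1 at 5.45 beside Cer1 and Gsc, which both lists hold. Of 18 neural crest genes around FOXD3, 12 rose and 2 fell (median 0.88; Sox8 4.38, Tfap2b 4.25). The lists around FOXA2 and FOXD3 had the highest medians. Counts and medians of all the lists cover only genes past the filter on low counts. A gene could be tested through the group where it is high, so they are only a description.

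Of 14 tested hedgehog and lateral mesoderm genes around FOXF, 7 rose and 3 fell (median 0.36; Tbx20 3.82, Hhip 4.17, Gata4 4.66). Of 11 tested paraxial mesoderm genes around FOXC, 4 rose and 5 fell (median 0.28; Mesp1 3.81, Meox1 -3.36, Pdgfra 1.55). Of 18 tested motile cilium genes of the FOXJ1 programme, 6 rose and 5 fell (Ccno -5.38, Tppp3 0.93, Rfx2 -1.09); the median was 0.11 and the mean -0.38, of opposite sign. Foxj1 fell while its list moved both ways.

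Of 20 corepressor partners of FOXK and FOXP, 3 rose and 5 fell (median -0.05; Ctbp2 -0.50, Sap30 0.62, Asxl1 -0.27). Of 5 long noncoding RNAs beside Fox genes only Foxl2os was tested (-2.07, edgeR adjusted p = 9.766e-06), with 35, 26 and 30 reads against 7, 9 and 5; it shares bases with the start of Foxl2. Fendrr had 4 reads in all, none in Mixl1 KO.

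**Figure D5:**
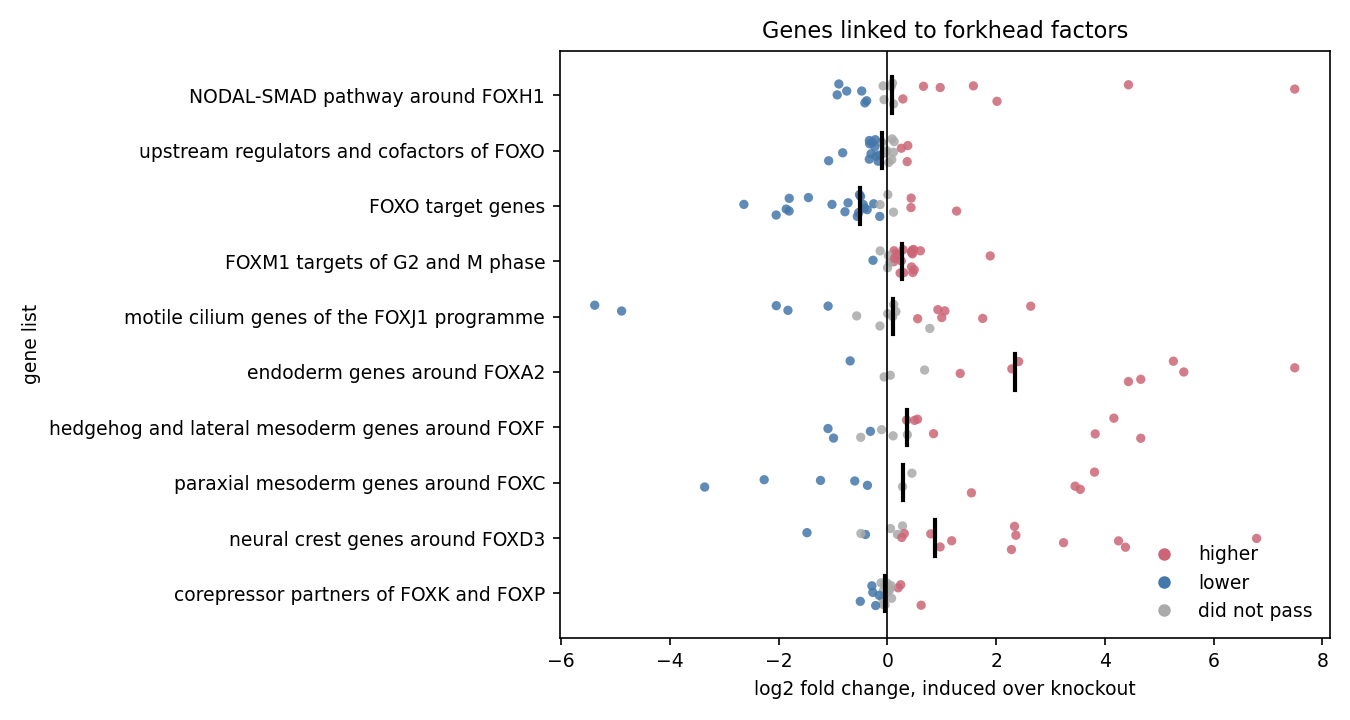
Log2 fold change, induced minus Mixl1 KO, of each tested gene in the lists related to forkhead factors, with the median of each list marked. The list labelled as FOXM1 targets, which also holds partners, and the list of endoderm genes lie mostly above 0. The FOXO targets lie mostly below it.

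In the authors' deposited table, 38 of the 44 members were listed. For the 25 members called here its log2 fold change had the same sign. Among members not tested here, the authors' deposited table gave 3.01 for Foxb2 (adjusted p = 0.005845) and -2.54 for Foxa3 (adjusted p = 0.0157). It gave 1.28 for Foxp2 (DESeq2 adjusted p = 0.113) and 0.75 for Foxr2 (adjusted p = 0.3283). For Foxl2 the authors' deposited table gave -0.76 with an adjusted p of 0.2191.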

How the data were processed

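Per the submitters' processing notes, reads were converted with bcl2fastq, aligned and counted with STAR on mm10, and compared with DESeq2; versions and annotation were not given in the sources used. The deposited counts are whole reads per gene, unstranded and for each strand; the column holding 96.2% to 96.29% of the stranded reads was used. Rows naming no gene (15.12% to 17.61% of reads) were left out. Per its file headers, the deposited comparison gives a mean normalised count (a signal averaged over libraries), log2 fold changes, a Wald score, p-values and −log10 of the adjusted p.

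Of 55471 identifiers 55144 matched GENCODE M21. Counts went through filterByExpr, TMM and edgeR 4.0.16 quasi-likelihood fits (R 4.3.3) over 6 libraries, with Benjamini-Hochberg adjustment at 0.05; the fit was tested on simulated data. DESeq2 1.42.0 and limma 3.58.1 (voom) were alternatives. Intervals are 95% exact binomial. Values per library are given for members changed at least 2-fold or at 10 CPM or more, and from each list the 3 called genes with the smallest p. The members and lists were chosen with earlier results of these data known; genes outside this rule were named after their values were seen. The values of 1 member and 1 list gene are not reported here. No sequence of proteins was used here.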

Additional observations from a re-analysis of the deposited data

How the results depend on the processing

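Under 14 other settings, 25 of 28 tested members kept their direction and their side of the threshold wherever they were tested, and none reversed. The exceptions were Foxa1 (adjusted p up to 0.05835), Foxl2 (up to 0.1621) and Foxp1 (up to 0.06257). Members called numbered 24 with unstranded counts, 25 with DESeq2's size factors or the upper quartile, 25 with limma-voom, 23 with the DESeq2 test, 22 of 24 tested with at least 1 CPM in 3 libraries, and 28 of 41 tested without a filter, where Foxa3, Foxb2 and Foxp2 were among those added. Over all genes, 9450 were called in the main fit and 9377 with unstranded counts. DESeq2's size factors gave 9446, the upper quartile 9423, limma-voom 9417 and the DESeq2 test 8624. The 1 CPM filter gave 9025 and no filter 9932. Leaving out 1 library gave 24 to 26 members, and 8863 to 9225 genes in all. With at least 2-fold change also required, a setting chosen after seeing the data, 11 members were called. Of the motile cilium genes 7 were called with the 1 CPM filter, against 11; the cause was not tested beyond that fewer genes entered. With the replicate number as a block (the replicate block), 24 members and 9647 genes in all were called. Foxl2 was then lost at an adjusted p of 0.05311. Same-numbered libraries correlated at -0.0026, 0.0463 and 0.0398 in their deviations from the group means, and only the libraries numbered 3 correlated best with their own number, so the numbers were not taken as pairs. Genes with few reads are limited by depth: 16 members had no test.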
